A study of Homo sapiens with 2 samples.

Results

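The miR-23, miR-27 and miR-24 microRNAs (miRNAs) are made in humans from a pair of related gene clusters, one on chromosome 9 with the hairpins mir-23b, mir-27b and mir-24-1, and one on chromosome 19 with mir-23a, mir-27a and mir-24-2. All rows of the deposited table with one of these 6 hairpins as precursor were taken, with both arms, which gave 12 of 1546 rows and 11 of 1497 mature names. They were measured by small RNA sequencing in A375, an established human melanoma cell line, cultured for 24 h and then given DMSO, the solvent used as a vehicle, for 48 h. There was 1 group of 2 libraries, described in the labels as independent replicates with no word on separate cultures, so their spread may be partly technical. No untreated or drug-treated sample was analysed here, and no condition was compared. The chromosome 9 and chromosome 19 clusters were instead set against each other, arm by arm, within each library.

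A miRNA hairpin is cut into a short duplex, one strand of which (the guide) is usually kept in Argonaute while the other (the passenger) is mostly lost. The guide finds messenger RNAs mainly through its seed, bases 2 to 8 from the 5′ end. In these clusters the 3p arms are the guides and the 5p arms the passengers. MiR-27 is known as a repressor of adipocyte differentiation and lipid metabolism genes, miR-23 for repressing glutaminase, and miR-24 for repressing cell cycle and DNA repair genes. The clusters have been studied most in endothelium, blood cells and tumours.

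The 5 guide sequences are shown first, because the comparison of the clusters depends on telling them apart. Sequences were taken from RefSeq (GRCh38.p14), which held all 11 member names, and the capitals mark the seed. The prefix hsa-, for human, is left off elsewhere.
hsa-miR-27b-3p (chromosome 9): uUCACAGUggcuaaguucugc
hsa-miR-27a-3p (chromosome 19): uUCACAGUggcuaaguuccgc
hsa-miR-23b-3p (chromosome 9): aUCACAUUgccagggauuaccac
hsa-miR-23a-3p (chromosome 19): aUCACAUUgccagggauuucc
hsa-miR-24-3p (both chromosomes): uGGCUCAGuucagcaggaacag

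Each paralogous guide pair shares its seed and its first 18 bases. Counted from 1 at the 5′ end and written with the chromosome 19 base first, miR-27a-3p and miR-27b-3p differ by C19U, and miR-23a-3p and miR-23b-3p by U19A over the 21 bases they have in common, with miR-23b-3p annotated 2 bases longer (23 against 21). A read that ends at base 18 or earlier is the same for both loci. How the authors assigned such reads is not given in the sources used here, so the values below are the authors' assignment to each name. The mature miR-24-3p is identical at both loci, and only its 5p arms identify the locus. They share their first 15 bases and differ at 6 of the 22, shown here in capitals.
hsa-miR-24-1-5p (chromosome 9): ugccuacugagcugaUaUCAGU
hsa-miR-24-2-5p (chromosome 19): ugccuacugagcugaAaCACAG

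The other passenger arms differ more, the miR-23 5p arms at 7 and the miR-27 5p arms at 8 of 22 bases.

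In GRCh38 (GENCODE 29) the chromosome 9 cluster covers chr9:95085208-95086088 on the plus strand, 881 bases. All 3 hairpins lie within C9orf3, a protein-coding gene of the same strand that encodes an aminopeptidase. MIR23B (95085208 to 95085304) and MIR27B (95085445 to 95085541) were intronic in all 7 annotated transcripts that span them, and MIR24-1 (95086021 to 95086088) was intronic in 6 and exonic in 1. The chromosome 19 cluster is more compact, chr19:13836287-13836659 on the minus strand, 373 bases. MIR23A (13836587 to 13836659), MIR27A (13836440 to 13836517) and MIR24-2 (13836287 to 13836359) lie in an exon of the only annotated transcript over them, that of the noncoding gene AC020916.1. The order along the transcribed strand is mir-23, mir-27, mir-24 in both. The gaps between neighbouring hairpins were 140 and 479 bases on chromosome 9 and 69 and 80 bases on chromosome 19.

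Library sizes were 10816826 read assignments in replicate 1 and 15428446 in replicate 2, as worked out from the RPM values (reads per 1000000 assigned reads). A single read was worth 0.0924 and 0.0648 RPM. Of 8 miRNAs fixed as melanocyte or melanoma markers, 6 reached 10 RPM in each library. The 8 had summed levels of 89388 and 77146 RPM. MiR-21-5p alone held 59733 and 47975 RPM of this, so most of the sum was 1 name. The melanocyte markers miR-211-5p and miR-137 were far below 10 RPM, at means of 0.203 and 0.472 RPM. Endothelial miR-126 arms, in a cell type where miR-23/24/27 is also described, summed to 186 and 265 RPM, and markers of blood, epithelium, muscle and liver to at most 203 RPM per list. MiR-486-5p alone held 171 and 200 RPM of the blood sum, and the next blood marker, miR-142-5p, had a mean of 2.21 RPM. The part of these cell types in the levels below was not tested. MiR-144-3p, miR-1-3p and miR-206 had no row in the table used here.

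The miR-23/24/27 arms were dominated by a single guide, miR-27b-3p from chromosome 9. Of the 11 names, 9 reached 10 RPM in both libraries, as did 335 of all 1497 names. Together they held 8.38% ± 0.434 (SD, n = 2) of the RPM, with each mature name counted once, and miR-27b-3p alone was 77.4% ± 0.135 of that. Values that follow are RPM per library, then the mean ± SD over 2 libraries. Because adapters ligate better to some sequences than to others, an RPM ratio between names only approximates a ratio of molecules.

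MiR-27b-3p had 52181 RPM in replicate 1 and 48824 RPM in replicate 2 (50503 ± 2374). It ranked 4 among all names in either library and 5 by mean. The nearest names by mean were miR-92a-3p above it (52790 ± 972 RPM) and let-7a-5p below it (41893 ± 717 RPM). Its range of mean ± SD overlapped that of miR-92a-3p and not that of let-7a-5p. Its paralogue from chromosome 19, miR-27a-3p, had 10560 and 9343 RPM (9952 ± 861), rank 20. MiR-140-3p stood directly above miR-27a-3p at 10956 ± 91.7 RPM and miR-186-5p directly below at 9808 ± 661 RPM. Taken as mean ± SD, miR-27a-3p overlapped miR-186-5p and ended below miR-140-3p. MiR-27b-3p was thus above miR-27a-3p in both libraries, with no overlap.

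The miR-27 guides together stood at 60454 ± 3234 RPM, 7.76% ± 0.465 of the total. No other name in the table had their seed, UCACAGU. That search covered the 1317 table names with a RefSeq sequence.

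For the miR-23 guides the order was the opposite. MiR-23b-3p (chromosome 9) had 677 and 791 RPM (734 ± 80.7), rank 74, against 2035 and 2190 RPM (2113 ± 110) for miR-23a-3p (chromosome 19), rank 48. The groups of values did not overlap, with the chromosome 19 paralogue higher in both libraries. MiR-769-5p (750 ± 128 RPM) and let-7d-5p (713 ± 83.6 RPM) flanked miR-23b-3p in rank. Let-7e-5p (2142 ± 40.9 RPM) and miR-93-5p (2040 ± 87.0 RPM) flanked miR-23a-3p, and in each case the neighbours did not differ beyond their spread. The seed of miR-23, UCACAUU, was shared by 1 further name, miR-23c from the X chromosome, with 2 reads in each library. The miR-23 guides summed to 2847 ± 190 RPM, and the miR-27 guides were 21.2-fold above them by mean (23.1-fold in replicate 1 and 19.5-fold in replicate 2).

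MiR-24-3p, with the seed GGCUCAG found in no other name, had 976 and 1264 RPM (1120 ± 204), rank 62, by the higher of its rows. With its rows summed the mean was 2234 RPM, which counts a read more than once if it was entered under both hairpins. Which rule fits the authors' assignment of shared reads is not given, so the level and rank of miR-24-3p depend on it. It stood between miR-26b-5p (1212 ± 45.6 RPM) and miR-1307-3p (1101 ± 192 RPM), whose ranges overlapped its own. The table lists it under both hairpins with almost the same count. The mir-24-1 row held 10555 and 19497 reads and the mir-24-2 row 10492 and 19409, a difference of 63 and 88 reads, or 0.597% and 0.451%. The guide's split between the loci cannot be read from these rows, since neither says which reads it shares with the other. Around the mature sequence the hairpins are identical for 4 bases on the 5′ side and 1 base on the 3′ side.

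**Figure D1:**
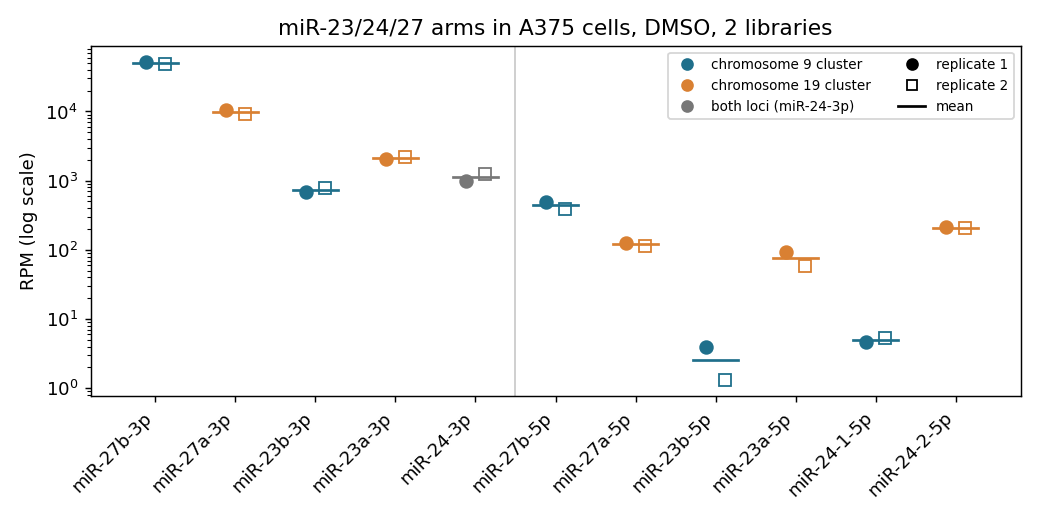
Level of each miR-23/24/27 arm in RPM on a log axis, guides (3p) left of the grey line and passengers (5p) right of it; filled circles are replicate 1, open squares replicate 2 and short lines the mean. MiR-27b-3p lies above miR-27a-3p (50503 against 9952 RPM), while miR-23b-3p lies below miR-23a-3p (734 against 2113 RPM).

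The passenger arms, which are distinct for every locus, gave the same order as the guides for miR-27 and miR-23 and a strong skew for miR-24. MiR-27b-5p had 489 and 389 RPM (439 ± 70.3), against 128 and 113 RPM (120 ± 10.2) for miR-27a-5p. MiR-23b-5p was the lowest member, with 42 and 20 reads or 3.88 and 1.30 RPM (2.59 ± 1.83), against 92.7 and 57.7 RPM (75.2 ± 24.8) for miR-23a-5p. MiR-24-1-5p had 50 and 81 reads, 4.62 and 5.25 RPM (4.94 ± 0.444), against 214 and 204 RPM (209 ± 7.29) for miR-24-2-5p. In none of these 3 pairs did the values of the loci overlap. In miR-27 the chromosome 9 arm was the higher, and in miR-23 and miR-24 the chromosome 19 arm.

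Expressed as a log2 ratio of chromosome 9 over chromosome 19 (after adding 1 RPM, so ratios of low arms are understated), the miR-27 pairs were positive and the others negative in both libraries. The ratio was 2.35 ± 0.06 (SD, n = 2) for the miR-27 guides, 5.07-fold by means, and 1.85 ± 0.11 for their passengers, 3.65-fold. For the miR-23 guides it was -1.53 ± 0.08, with miR-23a-3p 2.88-fold the higher. It was -4.47 ± 0.29 for the miR-23 passengers, with miR-23a-5p 23.9-fold the higher in replicate 1 and 44.5-fold in replicate 2. The miR-24 passengers stood at -5.15 ± 0.16, and miR-24-2-5p was the higher by 46.4-fold and 38.9-fold. Each ratio was larger than its spread between libraries. No p-value is given, because an exact permutation test with 2 libraries cannot go below 0.5.

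As shares of the reads of a pair, chromosome 9 gave 83.2% of the miR-27 guide reads in replicate 1 (95% Clopper-Pearson interval 83.1 to 83.3%) and 83.9% in replicate 2 (83.9 to 84.0%). It gave 25.0% (24.5 to 25.5%) and 26.5% (26.1 to 26.9%) of the miR-23 guide reads. Of the miR-24 passenger reads, 2.11% (1.57 to 2.77%) and 2.51% (1.996 to 3.11%) were from chromosome 9. The intervals cover counting error only, since PCR reads are not independent molecules, and for both guide pairs the libraries differed by more than that.

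**Figure D2:**
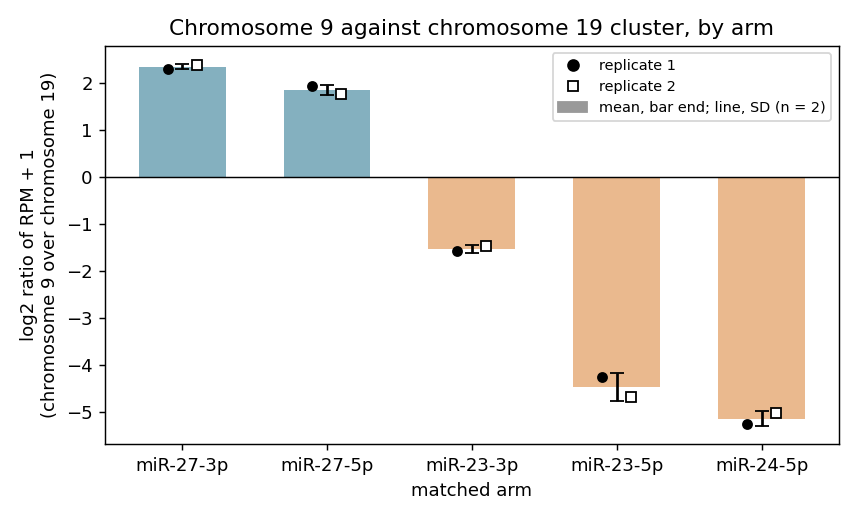
Log2 ratio of RPM + 1, chromosome 9 over chromosome 19, for the 5 arms that can be told apart; bars end at the mean, error lines are the SD over 2 libraries, and points are single libraries. Both miR-27 arms lie above 0 (2.35 and 1.85) and the miR-23 and miR-24 arms below it (-1.53, -4.47 and -5.15).

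Mature arms of neighbouring hairpins in a cluster, 140 bases apart (mir-23b and mir-27b) or 69 bases apart (mir-23a and mir-27a), had unequal levels. The gap was wider on chromosome 9. Levels of the hairpins themselves were not measured. On chromosome 9, miR-27b-3p exceeded miR-23b-3p by 77.1-fold in replicate 1 and 61.7-fold in replicate 2. On chromosome 19, miR-27a-3p exceeded miR-23a-3p by 5.19-fold and 4.27-fold. The log2 ratio of miR-27 over miR-23 guides was 6.11 ± 0.23 on chromosome 9 and 2.23 ± 0.20 on chromosome 19. The difference between the clusters was 3.87 ± 0.03. It uses the same guide values as the ratios between loci above, so it restates their opposite order and is no separate result. In the passenger arms the log2 ratio of miR-27 over miR-23 was 7.03 ± 0.54 on chromosome 9 and 0.71 ± 0.36 on chromosome 19. MiR-27b-3p made up 97.7% ± 0.122 of the chromosome 9 cluster without miR-24-3p, and miR-27a-3p 79.8% ± 1.83 of the chromosome 19 cluster.

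Added over arms without miR-24-3p, the chromosome 9 cluster held 51683 ± 2365 RPM (6.63% ± 0.347 of the total) and the chromosome 19 cluster 12469 ± 793 RPM (1.60% ± 0.112), a ratio of 4.09-fold and 4.20-fold in replicates 1 and 2. With the higher miR-24-3p row credited to it, either cluster would stand at 52803 ± 2161 RPM (chromosome 9) or 13589 ± 590 RPM (chromosome 19), so the unresolved split does not change this order. The passenger arms alone were closer between the clusters. They summed to 497 and 396 RPM (447 ± 71.7) on chromosome 9 and to 435 and 374.96 RPM (405 ± 42.3) on chromosome 19. The chromosome 9 sum was the higher within each library, by 1.14-fold and 1.06-fold (log2 ratio 0.14 ± 0.08), while the ranges over libraries overlapped. The chromosome 9 sum was nearly all miR-27b-5p, while on chromosome 19 miR-24-2-5p was the highest, followed by miR-27a-5p and miR-23a-5p.

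**Figure D3:**
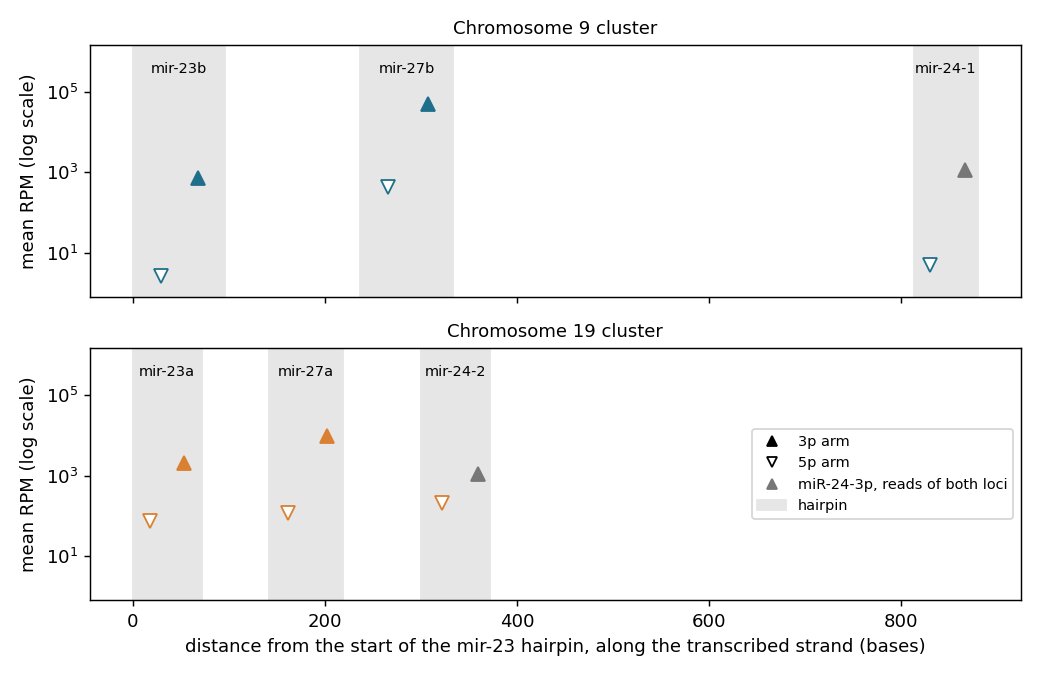
Mean RPM (log axis) of each arm along the clusters, to scale in bases from the start of the mir-23 hairpin on the transcribed strand. Grey bands are hairpins, filled triangles 3p arms and open triangles 5p arms. The grey triangle is miR-24-3p, whose reads match both loci and are not split between them. The mir-27 hairpin holds the highest guide in both clusters, and the 5p arms of mir-23b (2.59 RPM) and mir-24-1 (4.94 RPM) are the lowest points.

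In mir-27b, mir-27a, mir-23b and mir-23a the 3p arm was the higher in both libraries. The 5p arm made up 0.860% ± 0.0967 of the arm reads of mir-27b and 1.19% ± 0.00169 of mir-27a. The arms of mir-23 were more uneven between loci: 0.570% and 0.164% for mir-23b, against 4.36% and 2.57% for mir-23a. The log2 ratio of 3p over 5p was 6.85 ± 0.16 in mir-27b and 6.36 ± 0.003 in mir-27a, and 7.77 ± 0.93 in mir-23b and 4.83 ± 0.55 in mir-23a. With the miR-24-3p value listed under each hairpin taken as its own, the 5p share was 0.443% ± 0.0408 for mir-24-1 and 16.0% ± 2.93 for mir-24-2. These 2 values depend on how the shared guide reads are divided, which is not resolved, and are no estimate of either locus.

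**Figure D4:**
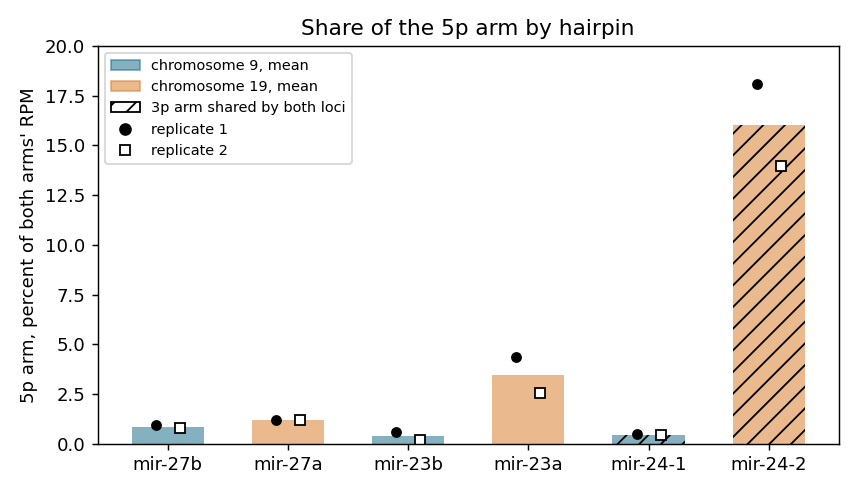
Share of the 5p arm in the RPM of both arms of each hairpin, in percent; bars are means, points the 2 libraries, and hatched bars use the miR-24-3p value listed under the hairpin, which both loci share. Of the 4 hairpins with arms of their own, mir-23a has the largest 5p share (3.46%), and the hatched values are not resolved by locus.

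The mir-27 hairpins are printed with their arms in capitals, since their guides differ by only 1 base while their 5p arms differ at 8 of 22. The RefSeq positions are chr9:95085445-95085541 on the plus strand and chr19:13836440-13836517 on the minus strand (GRCh38.p14).
mir-27b: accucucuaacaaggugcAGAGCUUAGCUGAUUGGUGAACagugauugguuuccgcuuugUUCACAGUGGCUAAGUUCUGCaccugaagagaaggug
mir-27a: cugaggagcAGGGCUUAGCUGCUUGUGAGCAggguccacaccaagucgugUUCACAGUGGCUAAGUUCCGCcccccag

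The mir-27 hairpins were identical at 57.7% of the columns of a global alignment, against 62.6% for the mir-23 and 76.3% for the mir-24 hairpins. Gap columns count as differences here, with 60 of 104, 62 of 99 and 58 of 76 columns identical. The annotated mir-27b hairpin is 97 bases long with 47.4% GC, and mir-27a 78 bases with 60.3% GC. RNAfold predicted a minimum free energy of -49.4 kcal/mol for mir-27b and -37.8 kcal/mol for mir-27a. The other chromosome 9 hairpins were also lower in GC (50.5% for mir-23b and 50.0% for mir-24-1) than those on chromosome 19 (57.5% for mir-23a and 54.8% for mir-24-2). Annotated hairpin lengths differ between loci, also for mir-23 (97 and 73 bases) and less for mir-24 (68 and 73 bases). The identities therefore depend partly on how much flank is annotated, and the energies are not per length.

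To see whether such gaps between paralogues are large, every pair of names in the table that differ only in the letter a or b was listed, with at least 1 name of the pair at a mean of 10 RPM. There were 55 such pairs, with a median absolute log2 ratio of 3.41, or 10.6-fold. The miR-27 guides stood at number 35 and the miR-23 guides at number 42 in order of that ratio, so 34 and 41 pairs were further apart. The miR-23 passengers stood at number 16 and the miR-27 passengers at number 37. Next to the miR-27 guides were miR-664b-3p over miR-664a-3p (-2.44 ± 0.27) and miR-181b-5p over miR-181a-5p (-2.19 ± 0.12). Next to the miR-23 guides were miR-92b-3p over miR-92a-3p (-1.54 ± 0.12) and miR-148b-3p over miR-148a-3p (-1.44 ± 0.12). Neither guide pair was thus unusually far apart among these 55 pairs. The 55 mix guide and passenger arms and include the miR-23 and miR-27 pairs themselves, so they are not a background of guides alone. Only 1 name of a pair had to reach 10 RPM, so some pairs set a detected name against one hardly read. An example is miR-20b-3p at 0.0462 RPM against miR-20a-3p at 14.8 RPM, and the median covers such pairs too. This is a description over names of the same libraries, with no test.

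Sequences were found for both names in 47 of these pairs, and in 7 the names differed at 1 base over their common length. Among those, log2 ratios of b over a ran from -6.94 ± 0.34 for miR-18b-5p and 6.85 ± 0.03 for miR-135b-5p to 1.25 ± 0.01 for miR-19b-3p, with the miR-27 and miR-23 guides between them. The 3 pairs with no differing base, miR-1268, miR-199-3p and miR-365-3p, were at 0.12, -0.02 and 0. Each name has a row of its own, so separate values do not show whether reads were assigned to the right name. The differing base lay at position 19 in the miR-27 and miR-23 pairs and at position 20 in the miR-18 pair, closer to the 3′ end than in the other pairs.

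**Figure D5:**
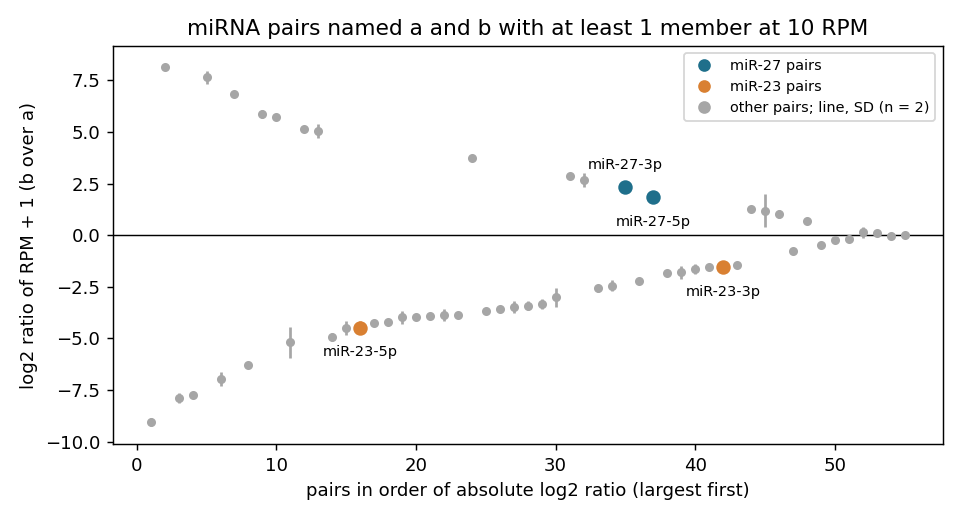
Log2 ratio of RPM + 1 (b over a) for the 55 pairs named a and b, in order of absolute size; points are means and lines the SD over 2 libraries. The miR-27 pairs lie above 0 at numbers 35 and 37 and the miR-23 pairs below 0 at numbers 42 and 16, among the other pairs in grey.

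The locus-specific passengers of miR-24 were set beside 8 other pairs of arms named for copy 1 and copy 2 of a duplicated hairpin, with 1 name at a mean of 10 RPM or more. The miR-24 pair had the second largest absolute log2 ratio of copy 1 over copy 2, after miR-16 (-5.32 ± 0.15; miR-16-1-3p 4.65 ± 0.348 RPM and miR-16-2-3p 226 ± 36.7 RPM). MiR-7 followed at 4.40 ± 0.31, and at the other end the copies of miR-30c were at 0.00 ± 0.65. These pairs share a guide sequence or nearly so, and the ratio of passengers need not equal that of the guides.

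The only other annotated hairpin within 10 kb of either cluster was MIR3074, on the opposite strand of MIR24-1 at chr9:95086014-95086094. Of the 21 bases of miR-3074-5p, 20 lie opposite miR-24-3p. MiR-3074-5p had 5.82 and 4.67 RPM (63 and 72 reads) and miR-3074-3p 2.50 and 2.72 RPM (27 and 42 reads), close to the level of miR-24-1-5p from the other strand and far below miR-24-3p.

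The libraries were compared with each other as the measure of error. In Fisher's exact test on reads (two-sided, Benjamini-Hochberg adjustment over 869 miRNAs, adjusted p under 0.05 and over 2-fold), 1 of the 11 names was called, against a background of 4.60% of all tested miRNAs (40). It was miR-23b-5p, 2.96-fold higher in replicate 1 (42 and 20 reads, adjusted p = 0.00013 by Fisher's exact test). Without a fold limit 9 of 11 names passed, against 34.5% of all tested and 69.7% of the 346 at a mean of 10 RPM or more, where many reads let small differences pass. The exceptions were the miR-24 passengers, miR-24-1-5p (adjusted p = 0.73) and miR-24-2-5p (adjusted p = 0.17), by the same Fisher's exact test. The median absolute log2 difference between libraries was 0.18 over the 11 names and 0.25 over the 346. The guides kept within 1.30-fold, and miR-23a-5p differed by 1.61-fold. In replicate 1, 7 names were the higher, among them all 4 miR-27 arms, and in replicate 2 the remaining 4, which were miR-23a-3p, miR-23b-3p, miR-24-3p and miR-24-1-5p. The test treats reads as independent and covers counting error only. It compares 1 library with the other and not conditions, and in such bulk RNA fewer cells of a kind and less of a miRNA per cell cannot be told apart.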

How the data were processed

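RNA of 2 samples of DMSO-treated A375 cells was purified with the miRNeasy Mini kit, per the labels' protocols. Small RNA libraries were made by standard Illumina protocols, per the same source. CASAVA 1.8 and cutadapt 1.2.1 were used, per the submitters' processing notes. No aligner, miRNA release, genome build or rule for multiply matching reads is given in the sources used here. The values the authors deposited are RPM, 1 per hairpin, mature name and library, written with decimal commas. Each column sums to 1000000 and 0 other columns of values were present. All values were whole multiples of the smallest in their column (100% within 0.01 reads), so read assignments were recovered. A read entered under several hairpins counts in each.

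For a mature name listed under several hairpins the highest value was kept. Shares are percentages of what was left, 77.6% (replicate 1) and 78.3% (replicate 2) of the original sum. Ratios used a pseudocount of 1 RPM. Fisher's exact test (scipy 1.17.1) covered miRNAs with at least 10 reads in sum, with 0.5 reads added for folds. It was run on simulated reads with counting error only, so that check does not cover further spread between libraries. Intervals were 95% Clopper-Pearson. Hairpins were folded with RNAfold 2.7.2 and aligned with biopython 1.88. Positions came from GENCODE 29 and RefSeq (GRCh38.p14), whose build may differ from the authors'.

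The members and lists were chosen with earlier results of these data known. Named miRNAs were all arms of the 6 hairpins, names sharing a guide's seed, entries within 10 kb, neighbours in rank of the guides and neighbours of the guide pairs among the a and b pairs. The comparison of arms named for copies 1 and 2, the count of pairs differing at 1 base and the names given with them were chosen after the values were seen. Alternatives were other pseudocounts, RPM minima, copy rules, scalings and fold limits, and leaving out each replicate.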

Additional observations from a re-analysis of the deposited data

How the results depend on the processing

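No ratio changed sign under the other settings. Neither a pseudocount nor leaving out a replicate could change it, since both libraries gave every ratio the same sign. Over 116 alternative values of 30 results, 96 stayed within the spread between libraries, or within 1.5 times for counts. A ratio, share or level from 1 library alone lies within that spread by construction. Leaving out a replicate could therefore not count as a shift there, and these settings say nothing on robustness. The cause of the shifts beyond these limits was not tested, beyond what each setting does by construction. With a pseudocount of 0.1 and of 10 RPM the log2 ratio of chromosome 9 over chromosome 19 became -4.96 and -2.74 for the miR-23 passengers and -5.38 and -3.88 for the miR-24 passengers. Summing copies counts a read more than once if it was entered under several hairpins. With copies summed, the members held 6.64% of the RPM, the chromosome 9 cluster without miR-24-3p 5.17% and the chromosome 19 cluster 1.25%. With the most abundant name removed from the total they held 9.26%, 7.34% and 1.77%. The number of miRNAs called between libraries was 81 above 1.5-fold, when miR-23a-5p joined miR-23b-5p, and 9 above 4-fold, when no member was called. With a single library, miR-23b-5p stood at 3.88 RPM without replicate 2 and at 1.30 RPM without replicate 1. No paired analysis was possible because there is 1 group, with no second group to share its replicate numbers; ratios between loci were already taken within each library. With 2 libraries and few reads for miR-23b-5p and miR-24-1-5p, depth limits their ratios.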
